A study of Sus scrofa with 10 samples.

Results

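Microglia, the resident macrophages of the brain, were followed in single-cell libraries of the porcine medial entorhinal cortex from 3 fetal stages and from adult animals. The cells were chosen by measured values of 6 genes: a cell was a member when its unique molecular identifiers (UMIs, one per captured transcript) of C1QA, C1QB, CSF1R, AIF1, CX3CR1 and P2RY12 summed to at least 3 and to at least 0.1% of its total, while HBB, the beta globin gene, stayed under 5% of the UMIs and the vascular genes PECAM1 and COL1A1 together at no more than 2 UMIs. The rule also names CLDN5, for which the tables used here have no row, so that gene could not remove any cell. The rule found 2360 members among 28229 cells, or 8.36%, and 2229 of them came from whole cells and 131 from nuclei.

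The study set out to profile the cell types of the developing and postnatal entorhinal cortex, the region that relays between hippocampus and neocortex. Whole cells freed with papain gave 1 library at embryonic day 50 (E50, pooled from 3 brains), 3 at E60 (from 1, 1 and 2 brains), 3 at E70 (from 2, 1 and 1 brains by the sample labels, while the study's table exchanges the numbers of E70_1 and E70_3) and 1 from an adult brain. Sorted nuclei gave 1 library at E70 and 1 from an adult, each from a single brain. The fetuses were crosses of Danish Landrace/Yorkshire sows with Duroc boars, and the sources name no treatment of the animals. The adults are described both as sows and as postnatal pigs, the latter with an age given in days after birth. Their age is thus not settled by the sources, and adult is used below as the label of the libraries. By the paper, the sows were killed for another study and the postnatal pigs were already dead when obtained, and no earlier treatment is stated. Libraries are called by stage and number below (E60_1, Adult_1), with nc marking nuclei.

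Microglia arise from yolk sac progenitors that enter the brain early in gestation and then renew themselves locally. Their survival depends on the receptor CSF1R and its ligands CSF1 and IL34, their identity on transcription factors such as PU.1 (gene SPI1), IRF8, RUNX1 and SALL1, and their surveillance on P2RY12, a sensor of extracellular ADP, and CX3CR1, the receptor of neuronal fractalkine. C1QA, C1QB and C1QC encode the chains of C1q, which opens the classical complement cascade and tags synapses and debris for engulfment, and AIF1 encodes the calcium-binding protein IBA1.

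The 3 C1q genes were adjacent on chromosome 6 (Sscrofa11.1, 80586259 to 80606076, a stretch of 19.8 kb, all on the plus strand), and P2RY12 lay on the minus strand of chromosome 13. The 250 bases directly upstream of each RefSeq gene start are shown because the C1q genes moved together between libraries whereas P2RY12 did not follow them. Capitals mark a match to GAGGAAGT, a PU.1-type site, in the C1QC window (on the opposite strand, 196 bases upstream) and to a composite ETS and IRF site, GGAA and GAAA with any 2 bases between them, in the P2RY12 window (51 bases upstream).
C1QA, chr6:80586009-80586258: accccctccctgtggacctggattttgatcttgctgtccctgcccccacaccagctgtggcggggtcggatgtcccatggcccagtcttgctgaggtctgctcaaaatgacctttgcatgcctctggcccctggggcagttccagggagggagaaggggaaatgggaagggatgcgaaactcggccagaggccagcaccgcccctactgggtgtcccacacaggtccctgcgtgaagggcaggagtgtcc
C1QC, chr6:80592341-80592590: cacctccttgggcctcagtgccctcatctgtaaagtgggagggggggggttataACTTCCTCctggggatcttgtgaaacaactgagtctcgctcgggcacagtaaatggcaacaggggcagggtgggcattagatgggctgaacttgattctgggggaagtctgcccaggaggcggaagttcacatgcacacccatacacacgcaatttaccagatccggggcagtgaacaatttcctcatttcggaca
C1QB, chr6:80601430-80601679: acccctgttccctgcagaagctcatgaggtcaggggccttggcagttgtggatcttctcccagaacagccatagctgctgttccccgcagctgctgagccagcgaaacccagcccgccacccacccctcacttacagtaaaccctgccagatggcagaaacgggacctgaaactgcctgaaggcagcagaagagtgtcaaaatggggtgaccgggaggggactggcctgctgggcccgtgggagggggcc
P2RY12, chr13:91572196-91572445: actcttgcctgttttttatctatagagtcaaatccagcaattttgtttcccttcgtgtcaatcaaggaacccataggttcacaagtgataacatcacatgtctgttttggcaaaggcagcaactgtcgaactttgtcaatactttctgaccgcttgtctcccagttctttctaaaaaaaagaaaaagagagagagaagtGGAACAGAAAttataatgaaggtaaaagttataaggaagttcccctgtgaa
Both strands were searched, and the letters GGAA are common to both motifs, so a single site could match each. Of 19531 upstream windows of the same length over all genes, 1.64% held the first motif and 2.26% the second. The windows of C1QA and C1QB held neither. The first motif was found in 0 of the 6 rule genes and in 1 of the 12 genes named below as most strongly higher. The second was found in 1 of the 6 and 0 of the 12. A link between these sites and the levels was not tested. A search for TATAAA (9.76% of all windows) and for TGANTCA, an AP-1 type site (5.25%), found neither in these 4 windows.

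Genes of microglia and other macrophages or leukocytes that the rule did not read were then used to check the label. They cannot tell microglia from the macrophages that line vessels and meninges, and C1QC moved together with the rule genes C1QA and C1QB. At least 1 UMI of PTPRC (the leukocyte phosphatase CD45), TYROBP (an adaptor of myeloid receptors), C1QC, SPI1 or LAPTM5 (a lysosomal membrane protein of blood cells) was present in 229 of 231 members of Adult_1 and in 1167 of 1173 of E60_1. With every cell thinned to 1000 UMIs, the share was 92.9% to 95.7% of members in the 8 whole-cell libraries against 1.38% to 11.9% of the other cells. CD68, a macrophage marker, was listed at 0 in every cell and checked nothing. In nuclei the label held less well: 76 of 125 members of Adult_nc and 3 of 6 of E70_nc carried a UMI of these genes. Of the nuclei members, 91 in Adult_nc and all 6 in E70_nc held only 3 or 4 UMIs of the rule genes, and a rule of at least 6 UMIs and 0.2% kept 14 and 0 of them. In E70_nc the members had no UMI of C1QA, CSF1R or TYROBP and 742 CPM (UMIs per 1000000 UMIs of the summed cells) of the neuronal gene STMN2, against 951 CPM in the other nuclei, so these 6 nuclei go against the label and are called members by rule only. Over all libraries, 108 members sat just inside the limit with 3 or 4 UMIs and 99 cells just outside with 2, while 271 cells had enough UMIs but stayed under 0.1%.

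Library totals ran from 2336865 to 55755512 UMIs, and the summed members of whole-cell libraries from 176277 (E70_2) to 5978806 (E60_1), so values of E70_1 and E70_2, with 14 and 15 members, are the least precise. Members held a median of 4642 UMIs in E60_1 and 5261.5 in E60_2 but 11601 in E60_3, 11135 in E50_1 and 9815 in E70_3. Any pair of the 10 libraries shared at most 57 cell barcodes, and 4 member barcodes occurred in more than 1 library. Per the study's supplement, E60_1 was sequenced in one pool with E70_1, E60_3 with E70_3, E50_1 with E70_2 and E60_2 with Adult_1. Across 7732 genes, which are not independent replicates, the summed member profiles of E60_1 and E60_2 had a Spearman correlation of 0.937 and those of E60_3 and E70_3 one of 0.909, whereas E60_1 against E60_3 gave 0.744. E70_1 and E70_2 stood apart from the rest at 0.433 to 0.643 and were alike at 0.804. The stage label therefore did not group the 3 E60 libraries, and results on stage are given with this in view.

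Among whole cells, microglia took their largest share in the adult library and their smallest in the E50 and E70 libraries. Members made up 2.20% of the E50_1 cells with HBB under 5% of the UMIs (exact binomial 95% interval 1.82% to 2.63%), 16.5%, 16.7% and 4.21% in E60_1, E60_2 and E60_3, 3.07%, 2.56% and 3.12% in the E70 libraries, and 32.4% in Adult_1 (28.9% to 35.9%). The 3 E60 libraries lay above the 3 E70 libraries without overlap, with means of 12.5% ± 7.16 and 2.92% ± 0.311 (SD, n = 3 each), a difference of -9.56 percentage points at an exact permutation p of 0.1 (two-sided), the smallest that 3 against 3 libraries allow. E60_3 was far closer to the E70 libraries than to E60_1 and E60_2, and without it the difference was -13.7 points. Within a sequencing pool, E60_1 stood at 16.5% beside 3.07% in E70_1, and E60_3 at 4.21% beside 3.12% in E70_3. Among nuclei, for which the label held less well, members made up 4.90% in Adult_nc and 0.699% in E70_nc, so the adult share differed widely between the preparations. Intervals here cover counting error only.

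**Figure D1:**
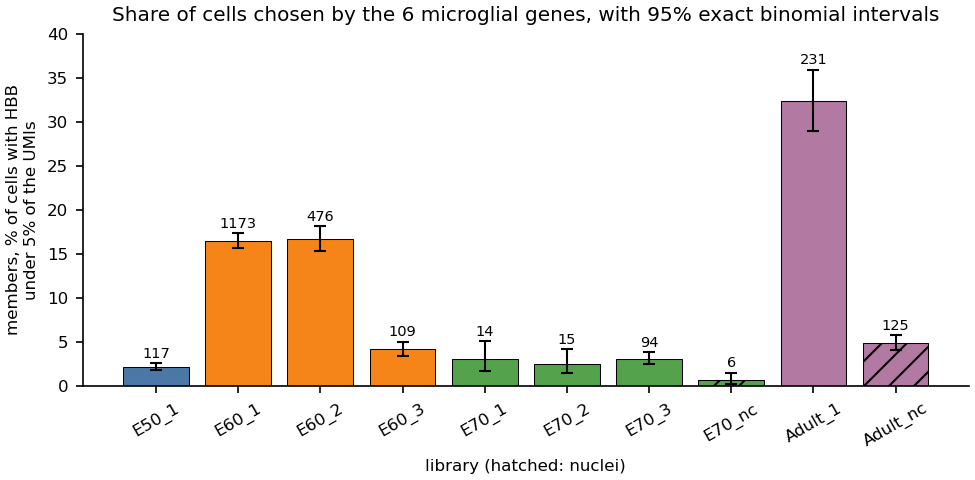
Bars give the share of cells with HBB under 5% of the UMIs that met the microglial rule in each library, in percent, with 95% exact binomial intervals; the number of members stands above each bar and nuclei are hatched. E60_1, E60_2 and Adult_1 (16.5%, 16.7% and 32.4%) stand above all the other libraries, which lie between 0.699% and 4.90%.

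The levels of the rule genes are a description, since these genes chose the cells. C1QA stood at 2681 CPM in members of E50_1, at 1801, 1798 and 802 in the E60 libraries, at 758, 868 and 1160.3 in the E70 libraries and at 3090.1 in Adult_1. C1QB followed the same order of high and low libraries, with 5269 CPM at E50, 4412, 4166 and 1148 at E60, 1658, 2065 and 1850.0 at E70 and 4746 in the adult. C1QC, which the rule did not read, had 1624 CPM at E50, 1436, 1545 and 412 at E60, 493, 641 and 671 at E70 and 1765 in the adult. All 3 C1q genes were thus high in E50_1, E60_1, E60_2 and Adult_1 and low in E60_3 and the E70 libraries, and no low library overlapped a high one.

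P2RY12 had another order: 366 CPM at E50, 372, 395 and 609 at E60, 356, 425 and 819 at E70 and 769.8 in the adult, so that E60_3, E70_3 and Adult_1 were the high libraries. CX3CR1 stood at 244 CPM at E50, 217, 302 and 121 at E60, 188, 125 and 155 at E70 and 447 in the adult, its highest level. CSF1R, the growth factor receptor, had its peaks in E50_1, E70_2 and Adult_1, with 779 CPM at E50, 617, 537 and 376 at E60, 443, 799.9 and 350.2 at E70 and 979 in the adult. AIF1 had its lowest levels in E60_3 (544 CPM) and E70_1 (569.7) and its highest in E60_1 (1768), with 733 in Adult_1.

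**Figure D2:**
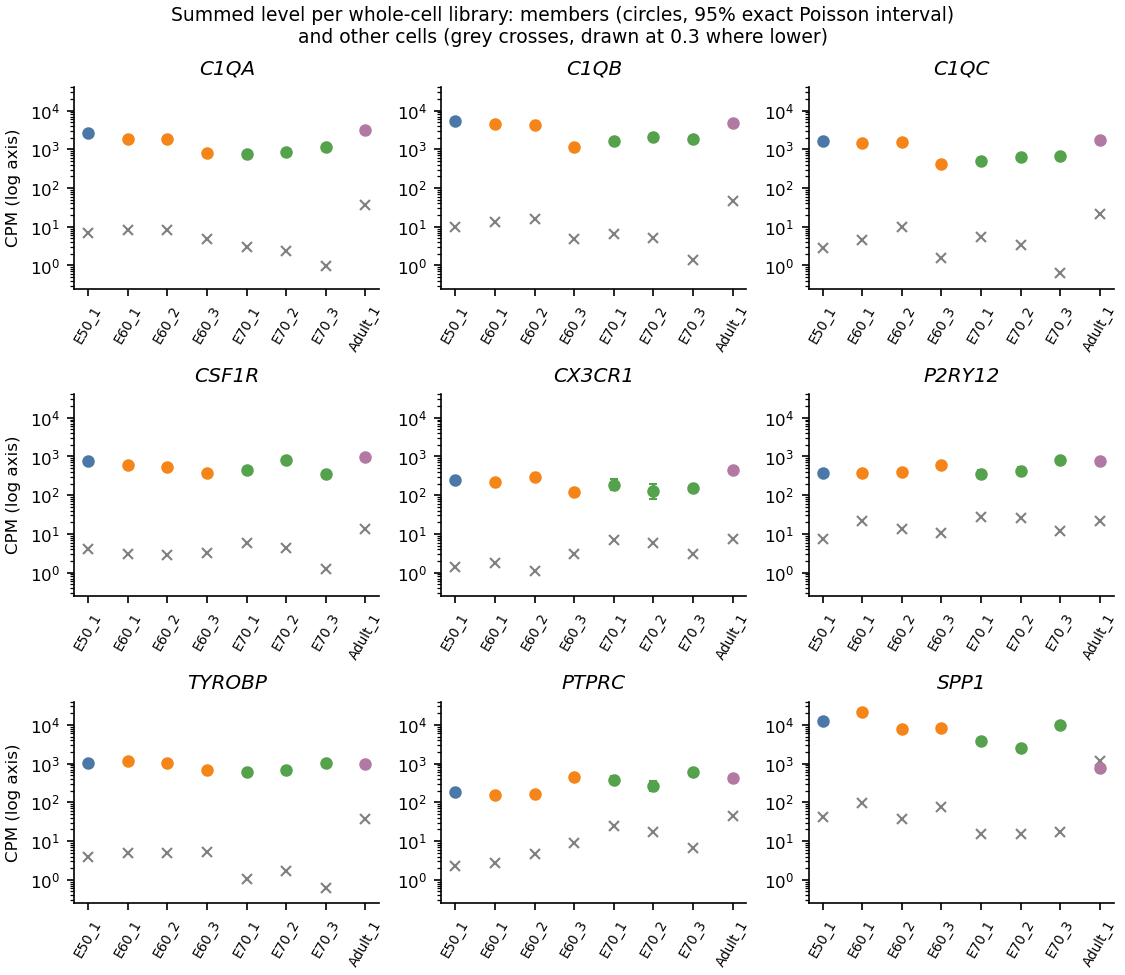
Each panel plots one gene in CPM on a log axis by whole-cell library, with members as circles (95% exact Poisson interval, often smaller than the symbol) and the other cells of the library as grey crosses. The C1q genes dip in E60_3 and the E70 libraries, PTPRC does not, and SPP1 falls in Adult_1 to 794 CPM, below the 1204 CPM of the other adult cells.

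Members were compared with the other cells of the same library by summing UMIs per library over each, for the 6 whole-cell libraries with at least 20 members (E50_1, the E60 libraries, E70_3 and Adult_1). Because the members were picked for genes of 1 cell type, this contrast describes what travels with the rule and is no independent evidence; the 6 rule genes, HBB, PECAM1 and COL1A1 were left out of the genes tested. With edgeR's quasi-likelihood test and Benjamini-Hochberg adjustment, 3085 of 15734 genes (19.6%) were higher and 3934 (25.0%) lower in members at an adjusted p under 0.05, and the median log2 fold change of all genes tested was -0.13. The counts of called genes per list below are to be read beside these shares.

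Among genes at 100 CPM or more in members of every fitted library, the 12 largest folds included receptors and adaptors of myeloid cells, a complement chain, a chemokine and an actin regulator. GPR34, a receptor for lysophosphatidylserine, had 253 CPM in members at E50, 489, 342 and 296 at E60, 224, 284 and 304 at E70 and 285 in the adult, against 0.126 to 2.39 CPM in other cells, a log2 fold change of 8.63 ± 0.49 (SE). Its lowest and highest libraries differed less than those of C1QC. TREM2, a lipid-sensing receptor that signals through TYROBP, ranged from 91.6 CPM in E70_1 to 549.5 in Adult_1 (log2 fold change 7.96 ± 0.30), and TYROBP itself from 610.4 CPM in E70_1 to 1186 in E60_1 (7.89 ± 0.73). FCER1G, the gamma chain of Fc receptors, was at 495 to 1702 CPM (7.75 ± 0.58). CALCR, the calcitonin receptor, was high in every whole-cell library, from 748 CPM in E70_1 to 2116 in Adult_1, against at most 25.2 CPM in other cells (7.36 ± 0.28). FOLR1, a folate receptor, shared the C1q order, with 1261 to 1546 CPM in E50_1, E60_1, E60_2 and Adult_1 and 325 to 488 in the other 4 libraries (7.34 ± 0.60).

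The remaining genes named by the fixed rule were CCL11 (an eosinophil chemokine), GMFG (an actin regulator of leukocytes), LAPTM5, RGS10 (a brake on G-protein signalling that microglia express strongly), GIMAP4 (a GTPase of lymphoid and myeloid cells) and C1QC itself, with log2 fold changes between 7.15 and 8.42. CCL11 stood out among them by its spread: 641 CPM at E50, 545, 325 and 1278 at E60, 310.3, 193 and 1818 at E70 and 1273 in the adult. Its high libraries E60_3, E70_3 and Adult_1 are the ones in which P2RY12 was also high. Genes with close paralogs, such as CCL11, CCL3L1, FOLR1 and GIMAP4, may share reads with their copies and are uncertain in level.

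Of 24 further genes of microglial and macrophage identity tested, 21 were higher, 1 was lower and 2 did not pass, with a median log2 fold change of 5.08. PTPRC stood at 184 CPM in members at E50, 155, 167 and 464 at E60, 376, 272 and 594 at E70 and 415 in the adult (5.77 ± 0.47), again highest in E60_3 and E70_3. AIF1L, a paralog of AIF1 known from other tissues, was the lower one (-2.18 ± 0.32), with 4.89 to 49.0 CPM in members. All 8 homeostatic genes tested were higher, among them SLC2A5, a fructose transporter (5.50 ± 0.67), and SALL1, a zinc finger factor that holds the microglial state in the adult brain (2.17 ± 0.31). SALL1 lay between 34.0 and 71.6 CPM in members of the 8 libraries with no order by stage. P2RY13 and ADORA3, 2 other genes of this list, were listed at 0 in every cell.

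Of 15 myeloid transcription factors tested, 13 were higher and 1 was lower. SPI1 had 393 CPM in members at E50, 295, 307 and 161 at E60, 188, 125 and 99.0 at E70 and 259.6 in the adult (4.34 ± 0.26), and its low libraries were those low in C1q. IRF8 had its peaks elsewhere, at 192 CPM in E50_1, 198 in E60_3, 211 in E70_3 and 358 in Adult_1 against 40.7 to 73.7 in the other 4 libraries (7.13 ± 0.68). RUNX1 was highest in E70_3 at 947 CPM and E60_3 at 646 (5.16 ± 0.42). ETV5, a factor of progenitors, was lower in members (-2.01 ± 0.33).

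Among ligands and receptors of microglial survival, 6 of 10 tested were higher, 1 was lower and 3 did not pass. CSF1, a ligand of CSF1R, was itself present in members, with 107 CPM at E50, 133, 23.4 and 171 at E60, 30.5, 34.0 and 235 at E70 but 17.9 in the adult, where the other cells had 25.5 (5.28 ± 0.97). IL34, the neuronal ligand, had 5.09 to 36.6 CPM in members and 269 CPM in the other adult cells, and did not pass (-0.73 ± 0.37). The TGF-beta arm was represented by TGFB1 (4.06 ± 0.53) and its receptor TGFBR2 (3.89 ± 0.61), and the IL10 receptor gene IL10RA was higher by 4.15 ± 0.27. CX3CL1, the ligand of CX3CR1, was the lower gene, at 0 to 1.38 CPM in members of the 8 whole-cell libraries. Of 6 purinergic genes tested 4 were higher, including P2RY6, which recognises UDP and prompts engulfment (4.95 ± 0.57).

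In the complement and engulfment list, 16 of 19 genes were higher and 1 was lower. C3, the central complement protein, had 42.6 to 136 CPM in members of fetal libraries and 492 in Adult_1 (5.36 ± 0.45), and C5AR1, the anaphylatoxin receptor, 35.6 to 185 CPM and 321 (6.22 ± 0.31). ITGAM, a chain of complement receptor CR3, had 56.1 CPM at E50, 66.4, 51.9 and 201 at E60, 163, 170.2 and 174 at E70 and 222 in the adult (3.44 ± 0.19). Other cells had 102.7 CPM of ITGAM in E70_1 and 94.05 in E70_2, which were not fitted, against 5.42 to 31.8 in the remaining whole-cell libraries. High ITGAM in E70_1 and E70_2 was thus not limited to members. MERTK and AXL, receptors for dying cells, were higher by 3.84 ± 0.40 and 2.30 ± 0.23, whereas the bridging protein MFGE8, abundant in astroglia, was lower (-1.30 ± 0.23). Of 20 lysosomal genes 18 were higher and 2 did not pass, with a median of 2.18. NPC2, a cholesterol carrier, reached 946 to 2854 CPM (5.46 ± 0.41), and the proteases CTSD and CTSS were higher by 4.70 ± 0.42 and 4.87 ± 0.38. CTSZ was uneven, with 1314 CPM at E50, 328, 161 and 749 at E60, 91.6, 130.5 and 521 at E70 and 97.3 in the adult (6.67 ± 1.01), and CTSB ran from 21.4 CPM in Adult_1 to 478 in E60_3 (2.04 ± 0.61).

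Antigen presentation genes were higher in 10 of 11 tests. The class II chaperone genes SLA-DMA (6.35 ± 0.57) and SLA-DMB (5.55 ± 0.31) had the largest folds, and the class I light chain B2M was higher by 3.56 ± 0.42, with SLA-DMB at 92.2 to 214 CPM in fetal members and 487 in the adult. All 15 inflammatory cytokine and chemokine genes tested were higher. TNF had 28.0 CPM in members at E50, 9.20, 8.04 and 175 at E60, 30.5, 11.3 and 339 at E70 and 59.4 in the adult (7.14 ± 0.71). IL1A had 18.9 CPM at E50, 9.20, 5.85 and 209 at E60, 50.9, 22.7 and 394 at E70 and 64.9 in the adult (5.15 ± 0.63). NLRP3, an inflammasome sensor, had 61.7 CPM at E50, 20.1, 18.3 and 177 at E60, 40.7, 17.0 and 266 at E70 and 82.2 in the adult (5.58 ± 0.44). E60_3 and E70_3, which shared a sequencing pool, were the highest libraries for all 3 genes and did not overlap any other. In other pools the partners differed, with TNF at 9.20 CPM in E60_1 beside 30.5 in E70_1 and 8.04 in E60_2 beside 59.4 in Adult_1. Summed over the list, members had 2198 CPM in E70_1 beside 2123 in E60_3 and 3547 in E70_3. The 3 genes thus do not stand for the whole list, and the part of the pool in these levels was not tested. For 14 immediate early and stress genes found in the tables, the summed share of member UMIs was 0.131% in E60_3 and 0.173% in E70_3, at the low end of the whole-cell range of 0.131% to 0.912%, while in other cells of these libraries it was 0.271% and 0.279%, near the top of a range of 0.0809% to 0.306%.

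The lists of activated, interferon and border macrophage genes were mixed. Of 15 activated and lipid-handling genes tested, 8 were higher, 1 was lower and 6 did not pass; SPP1 (osteopontin) led with 7.59 ± 1.30, GPNMB and CLEC7A were higher by 3.90 ± 0.58 and 4.72 ± 0.45, and the fatty acid carrier FABP5 was lower (-1.11 ± 0.27). APOE, the lipid transport protein, was at 5926 CPM in E50_1 and 7130.2 in Adult_1 but at 388, 426 and 577 in the E60 and 153, 369 and 559.9 in the E70 libraries (3.48 ± 0.57). Other cells of E50_1 and Adult_1 also had the most APOE, at 532 and 1426 CPM against 6.70 to 134 elsewhere. Of 11 interferon genes 6 were higher, led by MX2 (6.61 ± 0.66), and 5 did not pass. Of 9 border macrophage genes 8 were higher, with MS4A7 (5.98 ± 0.49) and the hyaluronan receptor LYVE1 (4.95 ± 0.74) in front, and F13A1 did not pass.

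Among markers of other leukocytes, 4 of 14 genes tested were higher and 1 was lower. The one at high level was NKG7, a granule protein known from natural killer cells, with 159 CPM at E50, 171, 124 and 122 at E60, 76.3, 96.4 and 150.1 at E70 but 19.3 in the adult (7.34 ± 1.00). The T cell genes CD3D and CD3E, at 0 to 10.4 CPM in members, and the B cell genes CD79A and MS4A1, at 0 to 5.67 CPM, did not accompany it. Markers of neurons were lower in 10 of 10 tests and those of astrocytes and radial glia in 10 of 10, with medians of -1.76 and -2.10, and 5 of 9 oligodendroglial and 3 of 7 vascular and erythroid genes were lower. Of 12 immediate early and stress genes tested 6 were higher and 6 did not pass, with a median of 1.03.

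Transcripts of other cell types were nevertheless present in members, and unevenly so. The genes lowest in members by the fixed rule were PTN, a growth factor of glia (-3.07 ± 0.47), S100A6 (-2.94 ± 0.43), AQP4, the astrocyte water channel (-2.86 ± 0.53), STMN4 of neurons (-2.85 ± 0.50), FABP7 of radial glia (-2.84 ± 0.40) and CNN3 (-2.81 ± 0.37). AQP4 was at 4.20 CPM in members at E50, 452, 200.4 and 3.49 at E60, 5.09, 17.0 and 23.4 at E70 and 9.67 in the adult, and its other cells held 1802 CPM in E60_1 and 431 in E60_2. PTN reached 4239 CPM in members of E60_2, where the other cells had 10792. Members in which 12 markers of astroglia, neurons and oligodendroglia made up 0.1% or more of the UMIs numbered 336 of 1173 in E60_1, 143 of 476 in E60_2 and 178 of 231 in Adult_1, but 2 of 94 in E70_3. Without such members the counts against other cells were 3043 higher and 4196 lower genes, 22 of 24 identity and 11 of 11 antigen presentation genes were higher, and the neuronal and astroglial medians moved to -2.95 and -3.03. The part of these UMIs in the levels of members was not tested beyond this.

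**Figure D3:**
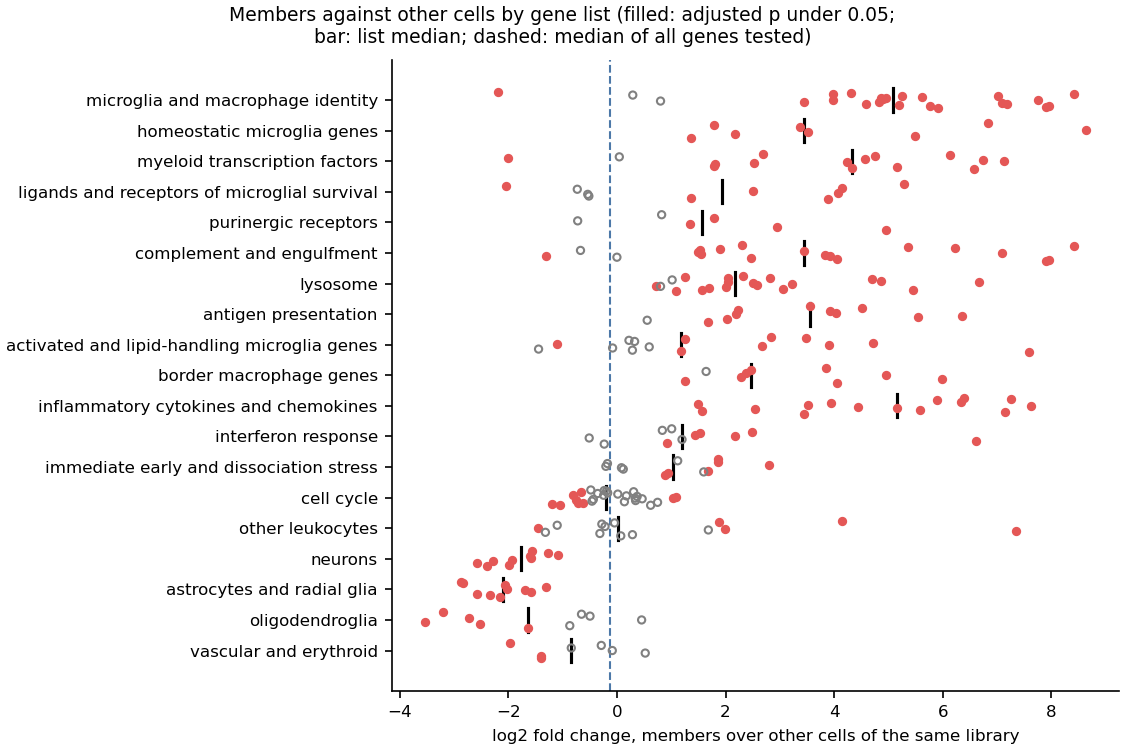
Each point is a gene, placed by its log2 fold change in members over other cells of the same library and by gene list; filled points passed an adjusted p of 0.05, bars are list medians and the dashed line is the median of all genes tested, -0.13. Myeloid lists lie to the right, with inflammatory genes at a median of 5.15, neuronal and astroglial lists lie to the left, and the cell cycle list centres on -0.19.

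SPP1 varied widely between libraries and between cells. Summed over members it had 12696 CPM at E50, 21279, 7766 and 8263 at E60, 3927, 2468 and 9971 at E70 and 794 in the adult, and in other fetal cells 15.6 to 94.3 CPM. Per cell the distribution was wide: in E60_1 the quartiles were 431 and 34895 CPM around a median of 11758, and 172 of 1173 members had no UMI of it. In E60_2 the median was 502 CPM and in E50_1 681, far under the upper quartiles of 6691 and 15957. With cells thinned to 1000 UMIs, at least 2 UMIs of SPP1 were found in 41.9% of members at E50, in 65.9%, 40.8% and 76.1% at E60, in 21.4%, 33.3% and 71.3% at E70 and in 3.90% in the adult, against at most 0.626% of other fetal cells and 27.3% of other adult cells. The adult share therefore lay below that of the cells around it.

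Members with SPP1 at 0.5% or more of their UMIs, a range and not a type, numbered 43 of 117 in E50_1, 685, 138 and 67 in the E60 libraries, 2, 4 and 55 in the E70 libraries and 2 in Adult_1, with 26 cells near the limit in E60_1. These cells were chosen for SPP1, so the other genes are given as values in the 5 fetal libraries with over 40 such cells. GPNMB, a lysosomal membrane protein, was at 31.0, 59.1, 83.3, 94.9 and 154 CPM in them (E50_1, E60_1, E60_2, E60_3, E70_3) and at 6.14, 5.93, 4.66, 21.8 and 32.1 in the remaining members. LGALS1, a secreted lectin, was at 1531, 682, 1813, 905 and 558 CPM against 55.3, 221, 166, 133 and 37.9, and CTSB and CTSD were higher in the same 5 libraries. CX3CR1 was lower in each, at 93.0, 161, 247, 116 and 112 CPM against 358, 303, 324, 129 and 231. P2RY12 was lower in 4 of them and not in E60_3, where it stood at 623 against 584 CPM. Border macrophage markers moved with SPP1 in part of the libraries: LYVE1 was at 165, 25.1, 44.7, 79.8 and 18.4 CPM in the SPP1-rich cells against 2.46, 1.70, 0.518, 91.3 and 14.6, so that it was higher in E50_1, E60_1 and E60_2 and not in E60_3. Their part in the values above was not tested.

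A second range of cells held at least 3 UMIs of MRC1, LYVE1, CD163, F13A1 and STAB1, markers of the macrophages that line vessels and meninges. Cells at 2 or 3 such UMIs numbered 12 in E60_1 and 19 in Adult_1, and only those at 3 belong to this range. Cells of the range numbered 22 of 117 members in E50_1 and 13, 15 and 20 in the E60 libraries. In the E70 libraries they numbered 4, 4 and 3, and in Adult_1 21 of 231. DAB2, an endocytic adaptor outside the 5 markers, had 798, 1691, 917, 766 and 726 CPM in them in E50_1, the E60 libraries and Adult_1 against 57.3, 102, 62.4, 76.2 and 129.7 in the remaining members. LGALS1 was at 2214, 4497, 10279, 1494 and 39.7 CPM in them against 268, 465, 313, 306 and 32.2, and SPP1 at 27309.5, 32249, 56963, 10574 and 5199 against 8650.1, 21182.5, 6040.3, 7384 and 183, so both ranges overlapped in these genes. SALL1 was at 19.4, 19.2, 0, 7.61 and 0 CPM against 46.5, 72.0, 47.7, 67.5 and 41.7 in the same libraries, over 13 to 22 cells each and so on few UMIs. In the E70 libraries, with 3 or 4 such cells each, SPP1 had no common direction. It was at 14339 against 591 CPM in E70_1, 240 against 3158 in E70_2 and 8231 against 10011 in E70_3. Members by the rule thus included cells with border macrophage transcripts, at 18.8% in E50_1 and 18.3% in E60_3 but 1.11% in E60_1, and these shares rise with depth per cell, which was higher in E50_1 and E60_3. Members were then thinned to 1000 UMIs, and those with at least 2 UMIs of the 5 markers were counted. They made up 6.84% of members of E50_1, 7.34% of E60_3 and 0.767% of E60_1. E70_1, E70_2 and E70_3 had none among 14, 15 and 94 members, with upper exact binomial limits of 23.2%, 21.8% and 3.85%. Thinned to 2000 UMIs, the share was 21.4% in E70_1 (3 of 14), 8.55% in E50_1, 9.17% in E60_3 and 1.28% in E60_1. At that depth E70_2 had 0 of 15 and E70_3 2 of 94. Before thinning, E70_1 and E70_2 had shares of 28.6% and 26.7% over 4 cells each. With so few cells, the place of E70_1 and E70_2 among the libraries could not be set, while E50_1 and E60_3 stayed above E60_1.

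Cell cycle genes were found in members of every whole-cell library. Of 27 genes tested against other cells, 2 were higher and 7 lower, and the list median of -0.19 was close to the -0.13 of all genes. UBE2C, a ubiquitin ligase of mitosis, had 45.6 CPM in members at E50, 120.1, 186 and 30.7 at E60, 20.3, 45.4 and 28.7 at E70 and 0 in the adult (-1.04 ± 0.21). At 1000 UMIs per cell, at least 2 cycle UMIs were found in 21.4% of members at E50, 19.9%, 22.9% and 22.9% at E60, 7.14%, 13.3% and 10.6% at E70 and 8.23% in the adult. The E60 libraries lay above the E70 ones without overlap, at 21.9% ± 1.71 and 10.4% ± 3.10 (SD, n = 3 each), a difference of -11.6 points at an exact permutation p of 0.1 (two-sided, the smallest possible). Within pools the pairs were 19.9% in E60_1 beside 7.14% in E70_1, and 22.9% in E60_3 beside 10.6% in E70_3. The counts behind E70_1 and E70_2 were 1 of 14 and 2 of 15 cells. Thinned to 2000 UMIs the shares overlapped, with a difference of -8.04 points and an exact permutation p of 0.4. The other cells had 27.3%, 37.5% and 15.4% in the E60 libraries and 13.4%, 11.6% and 14.7% in the E70 libraries. Outside the microglia the share was thus clearly higher in E60_1 and E60_2, while E60_3 lay close to its pool partner E70_3. The part of this in the members' share was not tested.

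**Figure D4:**
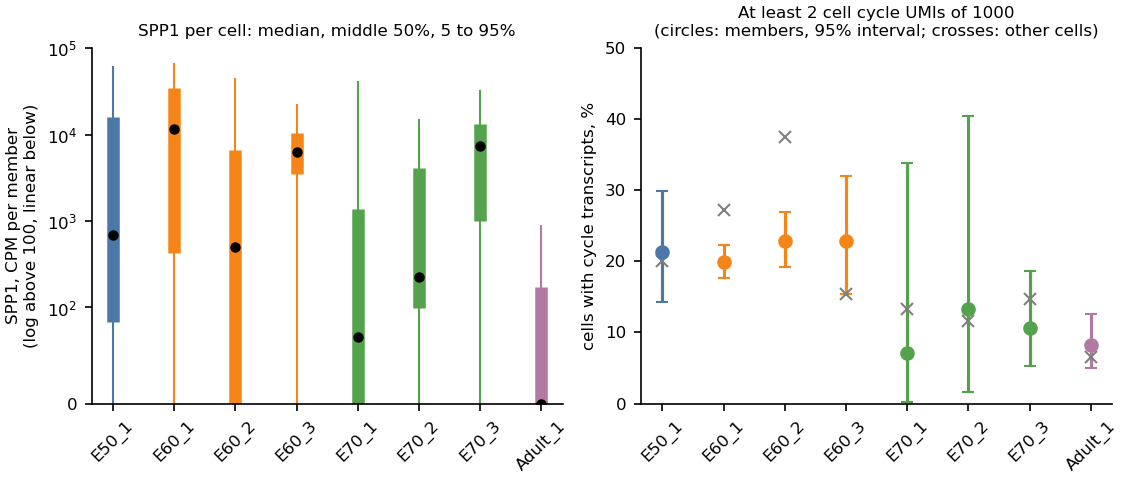
On the left, SPP1 per member in CPM (log axis above 100, linear below) is drawn by whole-cell library as the median (dot), middle 50% (thick line) and 5th to 95th percentile (thin line); on the right, the percent of cells with at least 2 cell cycle UMIs of 1000 is drawn for members (circles, 95% exact binomial interval) and other cells (crosses). SPP1 has medians from 0 in Adult_1 to 11758 CPM in E60_1, and the E60 members lie at 19.9% to 22.9% on the right against 7.14% to 13.3% at E70.

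Gene by gene, no difference between E60 and E70 members passed. Over 3 libraries a stage, edgeR's quasi-likelihood test called 0 of 10472 genes (0.0%) at an adjusted p under 0.05, with 1701 genes at an unadjusted p under 0.05, while the DESeq2 Wald test called 560. In data simulated for this comparison the same test recovered 0% of 95 genes changed 2-fold and 5.71% of 105 changed 4-fold, so that few changes of this size were detectable here. In 1920 genes (18.3%) the 3 libraries of one stage did not overlap those of the other. Cell cycle genes did so in 7 of 25 cases, with a list median of -0.74 (log2, E70 over E60) beside -0.05 for all genes. Markers of other cell types in these members moved the same way and further, with medians of -2.19 for 8 genes of astrocytes and radial glia and -1.28 for 8 neuronal genes, of which 2 and 4 did not overlap; their part in the cell cycle values was not tested. CDK1, a mitotic kinase, had 63.9, 82.6 and 34.9 CPM at E60 and 15.3, 22.7 and 18.1 at E70 (log2 fold change -1.74 ± 0.53, adjusted p = 0.156), and CCNB1, its cyclin, 42.1, 60.7 and 20.3 against 5.09, 17.0 and 13.8 (-1.76 ± 0.62, adjusted p = 0.202).

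Among other genes of the lists, IFI6 and F13A1 had larger folds than CDK1 and CCNB1, and CD63 and SCARB1 had smaller ones. The E60 and E70 libraries overlapped for IFI6, F13A1 and CD63 and did not for SCARB1. IFI6, an interferon-induced gene, had 255, 686 and 29.3 CPM at E60 and 10.2, 45.4 and 14.9 at E70 (-3.97 ± 1.04, adjusted p = 0.117), with 145 and 308 CPM in other cells of E60_1 and E60_2. F13A1 had 11.4, 4.02 and 7.69 CPM at E60 and 127, 113 and 6.39 at E70 (3.25 ± 0.89, adjusted p = 0.126), high in E70_1 and E70_2 only. CD63, a tetraspanin of late endosomes, had 1527, 1235 and 414 CPM at E60 against 265, 380.1 and 527 at E70 (-1.48 ± 0.54, adjusted p = 0.217). SCARB1, a lipoprotein receptor, was the reverse, at 175, 103 and 419 against 600.3, 471 and 558 (1.29 ± 0.49, adjusted p = 0.233). Without E60_3 the test called 344 genes and without E70_3 977, whereas without any other library it called 0.

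With members thinned to 1000 UMIs, 8 of 1990 genes were called, all higher at E70; they were CCBE1, GNAL, GPAT3, LIX1, OTC, PIP5K1B, PIPOX and 1 gene without a symbol, named here after their values were seen. CCBE1 had 1254, 1058 and 2453 CPM in E60 members and 14279, 14029 and 3758 in E70 members, beside 1533, 1147 and 3061 and 16570, 15091 and 4530.4 in the other cells of the same libraries. PIP5K1B had 590.4, 624 and 1034 CPM at E60 and 9915, 9604 and 1539 at E70, beside 589.9, 654 and 1193 and 11018, 10176 and 1731 in other cells. For each of these 8 genes E70_1 and E70_2 were the highest libraries in members and in other cells alike. Other genes did not share this: CCL4, a chemokine, had 0.836, 2.19 and 61.5 CPM in E60 members and 880.1, 68.1 and 46.8 in E70 members, beside at most 1.33 CPM in the other cells of these libraries, and did not pass (4.16 ± 1.49, adjusted p = 0.212).

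Adult and fetal members were set side by side without a test, since 1 adult library of whole cells was made. Of 8292 genes with 20 CPM or more, 157 (1.89%) were at least 4 fold higher in Adult_1 members than in the nearest of the 5 fetal libraries with 20 or more members, and 30 (0.362%) at least 4 fold lower. DMP1, a phosphoprotein known from bone and the family of SPP1, had 243 CPM in the adult (exact Poisson 95% interval 218 to 270) and 1.46 to 5.32 CPM in those fetal libraries, with 6.89 in other adult cells and 181 in the adult nuclei members. SPP1, 199.9 kb away on chromosome 8, went the opposite way, from 7766 to 21279 CPM in the same fetal libraries to 794 (749 to 841). MEPE and IBSP, the genes between them, had at most 1.38 CPM in members of these 6 libraries.

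Of the antigen presentation list, CD74 and SLA-DQB1 were at least 4 fold higher in adult members, and 8 of 10 genes compared were not. CD74, the class II invariant chain, had 1542 CPM in the adult (1479 to 1608) against 37.1, 34.1, 34.7, 18.2 and 24.5 in E50_1, the E60 libraries and E70_3, and HLA-DRA, as the files name this class II gene, 287 against 0.699 to 12.5. Both were also higher in other adult cells (234 and 71.8 CPM) than in fetal members. CIITA, the class II transactivator, had 63.5 CPM in the adult and 0 to 25.5 in fetal members. The other genes named as higher were CH25H, a cholesterol hydroxylase (173 against at most 7.86 CPM), ARHGAP15, a Rac regulator (437 against at most 28.0), DNAJC5B (215 against at most 15.4), CACNG1 (44.2 against at most 3.50) and TF, the iron carrier transferrin (68.3 against at most 3.19). TF had 2269 CPM in the other adult cells, and CACNG1 59.1. In the adult nuclei members, CD74 was at 20.1 CPM and HLA-DRA and CH25H at 0, where 3 UMIs stand for 30.1 CPM. ARHGAP15 had 904 CPM in these nuclei, TF 442, DNAJC5B 271 and CACNG1 20.1. The rise of CD74, HLA-DRA and CH25H was thus seen in adult whole cells only, and the part of the preparation was not tested. In E70_1 and E70_2, which were left out for their few members, ARHGAP15 stood at 229 and 244 CPM and CACNG1 at 96.7 and 90.8, so neither was low in every fetal library.

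Among the genes lower in the adult, ACP5, a lysosomal phosphatase, had no UMI in the adult, at least 43.8-fold lower than the nearest of the 5 fetal libraries when set against a floor of 3 UMIs in the adult library, and 90.7 to 245 CPM in the 5 fetal libraries. UBE2C was also at 0, at least 13.9-fold lower, and BIRC5 and CENPF, both of mitosis, had 2.76 and 4.83 CPM against 32.1 to 71.3 and 46.8 to 69.5. LGALS1 had 33.1 CPM (24.4 to 43.9) against 368 to 690, although 391 in the other adult cells and 22.7 in E70_2, and ANXA2, a membrane-binding annexin, 10.4 against 106 to 231. E70_1 and E70_2, left out for their few members, were nearer to the adult for several of these genes: ACP5 had 20.3 and 73.7 CPM there, ANXA2 15.3 and 62.4, and CENPF 15.3 and 5.67. As 3 UMIs stand for 15.3 CPM in E70_1 and 17.0 in E70_2, several of these values rest on few UMIs. FABP7 completed the group at 6.90 CPM, with 72.2 to 541 CPM in members of the 5 fetal libraries, 15.3 and 22.7 CPM in E70_1 and E70_2, and 884 to 2220.0 CPM in other cells of those 5. Members rich in markers of other cell types (0.1% or more of the UMIs) were then left out. FABP7 was then at 8.82 CPM in E70_3, close to the 5.46 CPM (2 UMIs) of Adult_1, and at 43.0 to 298 CPM in E50_1 and the E60 libraries.

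By list, 3 of 12 cell cycle genes compared were lower in the adult and 0 higher, 2 of 10 antigen presentation genes were higher, and 0 of 22 identity and 0 of 7 homeostatic genes passed 4 fold in either direction. Of 9 stress genes 2 were higher: FOS stood at 1728 CPM in adult members against 53.4 to 197 in the 5 fetal libraries and 318 in E70_2, beside 685 in other adult cells, and ATF3 was the other. The myelin genes MBP and MAG were higher too, with MBP at 925 CPM in adult members and 6039 in the other adult cells. In the 53 adult members with few UMIs of other cell types, MBP was at 483 CPM, CD74 at 2745, DMP1 at 218 and SPP1 at 409. Stage, animal, dissociation and library cannot be told apart here, and 249 genes were higher and 38 lower when members with UMIs of other types were left out of all libraries.

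**Figure D5:**
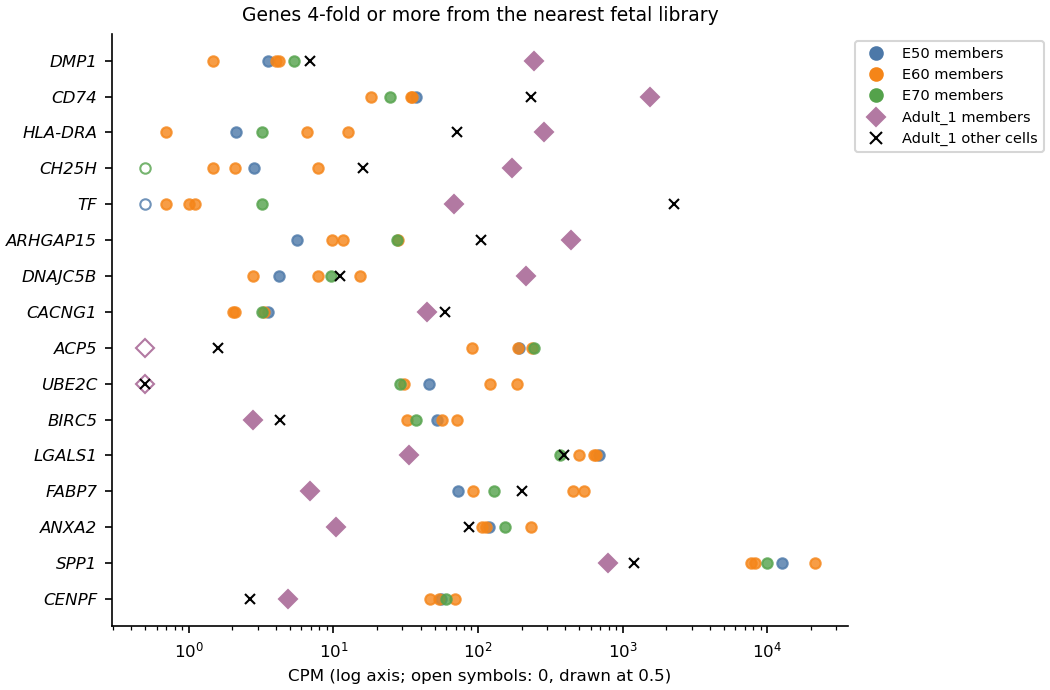
For each gene named in the adult comparison, CPM on a log axis is drawn for members of the 5 fetal libraries with 20 or more members (circles by stage), members of Adult_1 (diamonds) and other cells of Adult_1 (crosses), with open symbols for 0. DMP1, CD74 and HLA-DRA members lie right of the other adult cells, TF lies left of them, and ACP5 and UBE2C are at 0 in adult members.

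The adult nuclei members had a flatter profile at a median of 669 UMIs. P2RY12 had 2583 CPM (257 UMIs) in them and 146 in the other nuclei, and it supplied most of the UMIs that met the rule, while C1QB had 1397 CPM and CSF1R 90.4. MEF2A, a factor of microglial enhancers, was at 2402 CPM and RUNX1 at 281 in nuclei members. TYROBP, at 181 CPM, was far below its level in adult whole cells (987 CPM), and SPP1 was at 80.4 CPM against 203 in the other nuclei. With 1 library of each kind these are values without a test.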

How the data were processed

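Single-cell 3′ libraries (10X Genomics, v2 chemistry) were made from the medial entorhinal cortex of pigs, 8 from whole cells and 2 from nuclei. The deposited tables hold raw UMI counts per gene and cell, which the authors made with Cell Ranger (version 2.20 as written in the submitters' processing notes) on Sscrofa11.1 with introns counted. No column of other samples was present. Of 22452 gene rows 7482 carried an identifier only, and 987 of those were given a symbol from the identifier table, GIMAP4 among them.

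The members and the gene lists were chosen with earlier results of these data known. UMIs were summed per library over members and over other cells with HBB under 5% and no more than 2 vascular UMIs. Sums were tested with edgeR 4.0.16 (quasi-likelihood, TMM, Benjamini-Hochberg adjustment, library as a block against other cells, R 4.3.3) and, as an alternative, DESeq2 1.42.0. Shares were compared with exact permutation tests (SciPy 1.17.1), and E60 and E70 were compared over libraries with at least 10 members. The fits were tested on simulated data, where 26.3% of 95 genes changed 2-fold and 82.9% of 105 changed 4-fold were recovered for members against other cells over 15734 genes. No doublet caller was run, and an alternative left out members over 2 times their library's median UMIs. Samples with the same replicate number share no animal in the sources, and their deviations from the group means correlated at -0.12, 0.10 and 0.05 over 10480 genes. P-values measure the spread between libraries.

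Named genes were, by rule, the 12 largest higher folds at 100 CPM or more and the 6 lowest at 20 CPM or more in other cells, the 8 largest adult ratios in each direction, the 3 most abundant genes of each list, and list genes that passed a test. IL34, CD3D, CD3E, CD79A, MS4A1, MEPE and IBSP were named after their values were seen. Genes were compared between the adult and fetal libraries at 20 CPM or more in either. Upstream sequences are from RefSeq on Sscrofa11.1. A few list genes are not reported here by name.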

Additional observations from a re-analysis of the deposited data

How the results depend on the processing

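Against other cells, 1925 genes were higher and 2030 lower without the library block, where calls on PTN, AQP4, FABP7, CD63, CD74, APOE, FABP5, IFI6 and MFGE8 among others were lost; leaving out 1 library at a time gave 2381 to 3367 higher and 2898 to 4239 lower genes. Between E60 and E70, where 0 genes were called, DESeq2 called 560 (473 higher at E70), no filter on low counts 658 (483 higher), members thinned to 1000 UMIs 8, and the replicate block 1, PAEP, which had 107, 170.2 and 1.06 CPM in E70 members and 98.8, 143 and 1.05 in their other cells. Leaving out 1 library at a time gave 0 to 977 calls there, with 344 without E60_3. The cause was not tested. The share difference ran from -13.7 to -7.43 points and that of cycling members from -13.0 to -9.94 without 1 library. In the adult comparison, 249 genes were higher when members with UMIs of other types were left out, an alternative chosen after seeing the data, and 48 were lower with a minimum of 10 CPM. F13A1 turned to -0.33 (log2, E70 over E60) with libraries of at least 50 members, which leaves 1 E70 library. Of the other values recomputed under the alternatives, 1230 for single genes and lists and 58 for main comparisons kept their direction and side of the threshold or stayed within 1.5 times, 28 lost and 17 gained a call. E70_1 and E70_2, with 14 and 15 members, and the nuclei, with medians of 669 and 1596 UMIs, limit what depth could show.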
